A study of Mus musculus with 18 samples.

Results

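The 34 genes described here make cholesterol and fatty acids or set how much of each is made, and they were taken by symbol from the 55401 genes counted in every library. They comprise 18 enzymes of sterol synthesis, 8 enzymes of fatty acid synthesis, 5 regulators of the SREBP pathway and 3 proteins that move sterols between membranes. RNA was measured in primary cholangiocytes, the epithelial cells that line bile ducts, taken from mice with polycystic liver disease (PLD), whose ducts form cysts, and from wild-type (WT) mice. All mice of the untreated groups had received tamoxifen, and the groups were PLD at 2 months, WT at 2 months, PLD at 1 month and WT at 1 month after it. Another 2 groups were PLD mice given CPTH6, which blocks the acetyltransferases Kat2a and Kat2b, or ML324, which blocks KDM4 histone demethylases, and their library titles give 3 months. Each of the 6 groups had 3 libraries, 18 in all. The labels name no inactivated gene, no Cre driver, no dose and no vehicle group, so a compound, the month and the library preparation cannot be told apart when a compound group is set against untreated PLD at 2 months. Nothing states that replicates are separate animals, so a p-value here covers the spread of these samples alone, and that spread may be technical.

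Cholesterol is built from acetyl-CoA through mevalonate, farnesyl diphosphate, squalene and lanosterol. Fatty acids are built from the same acetyl-CoA through malonyl-CoA. Both routes are switched on by the SREBP transcription factors, which SCAP carries out of the endoplasmic reticulum when sterol is low and which INSIG proteins hold back when sterol is high. SREBP-2, from Srebf2, acts mostly on sterol genes, and SREBP-1c, from Srebf1, mostly on fatty acid genes. SREBPs bind sterol regulatory elements, often beside a CCAAT box that binds NF-Y.

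The promoters of 27 of the 34 genes were at hand as RefSeq windows (build GRCm38.p6) running from 250 bases before the transcript start to 50 bases after it. The windows of 4 genes whose PLD to WT difference was called as changed between months (Hmgcs1, Insig1, Idi1 and Sc5d) and of Fasn, from the fatty acid arm, are printed 5′ to 3′ on the gene's strand. The calls of these 4 did not hold under every alternative, as given below. They lie at chr13:119690101-119690400 (plus strand) for Hmgcs1, chr5:28071162-28071461 (plus strand) for Insig1, chr13:8885356-8885655 (plus strand) for Idi1, chr9:42264251-42264550 (minus strand) for Sc5d and chr11:120824498-120824797 (minus strand) for Fasn. Capitals mark CCAAT, or ATTGG where it lies on the other strand, and the single match to the sterol regulatory element TCACNCCAC.
Hmgcs1: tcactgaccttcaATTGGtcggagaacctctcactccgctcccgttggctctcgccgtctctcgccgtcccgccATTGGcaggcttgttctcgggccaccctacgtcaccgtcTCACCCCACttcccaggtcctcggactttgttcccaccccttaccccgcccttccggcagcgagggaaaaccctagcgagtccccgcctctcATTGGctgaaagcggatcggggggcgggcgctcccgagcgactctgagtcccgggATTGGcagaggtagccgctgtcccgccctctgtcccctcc
Insig1: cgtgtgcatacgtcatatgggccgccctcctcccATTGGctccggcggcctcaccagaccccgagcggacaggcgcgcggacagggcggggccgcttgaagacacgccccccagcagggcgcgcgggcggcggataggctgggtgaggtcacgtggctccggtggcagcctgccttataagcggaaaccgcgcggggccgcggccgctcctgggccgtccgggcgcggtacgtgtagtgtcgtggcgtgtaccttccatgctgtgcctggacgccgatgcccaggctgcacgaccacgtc
Idi1: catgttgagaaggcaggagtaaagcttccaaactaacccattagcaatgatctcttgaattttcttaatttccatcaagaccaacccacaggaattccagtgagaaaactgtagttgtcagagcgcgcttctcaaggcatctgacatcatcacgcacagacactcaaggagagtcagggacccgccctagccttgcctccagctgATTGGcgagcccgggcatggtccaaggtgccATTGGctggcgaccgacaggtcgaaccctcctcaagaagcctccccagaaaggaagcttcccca
Sc5d: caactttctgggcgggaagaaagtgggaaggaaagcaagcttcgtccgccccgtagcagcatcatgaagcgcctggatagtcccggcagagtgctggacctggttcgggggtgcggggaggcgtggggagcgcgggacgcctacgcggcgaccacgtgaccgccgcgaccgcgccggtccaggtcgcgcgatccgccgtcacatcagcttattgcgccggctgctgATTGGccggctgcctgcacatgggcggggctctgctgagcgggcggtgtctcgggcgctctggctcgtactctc
Fasn: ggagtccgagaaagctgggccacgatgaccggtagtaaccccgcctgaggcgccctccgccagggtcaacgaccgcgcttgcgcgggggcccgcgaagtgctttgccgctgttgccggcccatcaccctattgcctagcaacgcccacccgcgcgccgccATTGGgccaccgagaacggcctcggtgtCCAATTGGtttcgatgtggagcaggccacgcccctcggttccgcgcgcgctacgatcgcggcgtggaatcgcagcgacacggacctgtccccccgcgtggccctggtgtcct

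CCAAT was found on either strand in 14 of the 15 sterol enzyme genes with a window, in 4 of 6 fatty acid enzyme genes, in 4 of 5 regulators and in 1 of 1 transport gene, against 41.1% of all 27025 genes with a window. TCACNCCAC was found on either strand in 1.44% of all genes and, among the 27 of these 34 genes with a window, in Hmgcs1 alone, as TCACCCCAC 137 bases before the start. In Hmgcs1 the CCAAT boxes on the opposite strand lay 237, 176 and 45 bases before the start and 10 bases after it. In Insig1 the box lay 216 bases before the start, in Idi1 45 and 14 bases before, and in Sc5d 24 bases before. In Fasn boxes lay 90, 62 and 59 bases before the start, and the matches at 62 and 59 overlap on opposite strands. A match describes letters in the window and no bound factor. Only exact matches inside the window were searched, so the lack of one does not show that a gene lacks a sterol regulatory element.

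Total counts per library ran from 16345740 to 29277311, and every one of the 34 genes passed the filter on low counts in every comparison. Cholangiocyte markers were present in all libraries, with 10 marker genes summing to between 12690 and 14880 CPM (counts scaled to a common library size) in PLD at 2 months, 2378 to 4621 in WT at 2 months, 8427 to 11630 in PLD at 1 month and 3343 to 9105 in WT at 1 month. They summed to between 18680 and 22560 CPM with CPTH6 and between 16040 and 19710 with ML324. The libraries also held RNA of other cells: 10 fibroblast and stellate markers summed to between 344.0 and 419.9 CPM with CPTH6, 274 to 903 with ML324, 3209 to 7348 in PLD at 2 months, 5587 to 12270 in WT at 2 months, 9838 to 12640 in PLD at 1 month and 2425 to 14900 in WT at 1 month. Endothelial markers summed to between 105.8 and 545 CPM in the compound groups, 431 to 1126 in PLD at 2 months, 5930 to 10500 in WT at 2 months, 1886 to 3635 in PLD at 1 month and 1723 to 4536 in WT at 1 month. Hepatocyte markers, mostly Alb, summed to between 3112 and 5980 CPM in the compound groups, 2486 to 5477 in PLD at 2 months, 668 to 946 in WT at 2 months, 2311 to 3629 in PLD at 1 month and 503 to 2144 in WT at 1 month. The sums do not stand for the list: in PLD against WT at 2 months 4 of the 10 were called higher and 4 lower, with log2 fold changes from -3.98 to 3.42 and a median of 0.07. Adipocyte-defining Adipoq and Lep were at or below 0.413 CPM in every library, and the hepatocyte enzyme Cps1 was at or below 4.39 CPM. These genes do not stand for their lists: the 8 adipocyte markers summed to between 12.9 and 44.4 CPM. With CPTH6 against untreated PLD 3 of the 8 were tested. Of these 1 was called higher (log2 fold change 4.01, edgeR adjusted p = 0.0412) and 2 lay below 0. WT replicate 3 at 1 month stood apart, with cholangiocyte markers at 9105 against 3489 and 3343 CPM and fibroblast markers at 2425 against 13520 and 14900 CPM in the other two. WT replicate 1 at 2 months also differed, with 40039 genes holding a count. PLD replicate 2 at 2 months differed in its markers from replicates 1 and 3. Its endothelial markers stood at 1126 against 551.9 and 431 CPM. Its fibroblast markers stood at 3209 against 5667 and 7348 CPM, and its hepatocyte markers at 2486 against 5477 and 5049 CPM. In such bulk samples fewer cells of a type and less RNA per cell cannot be told apart.

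Levels between genes were set side by side per kilobase of exon, as the median over the 18 libraries. Scd2, a stearoyl-CoA desaturase, was at 50.5 CPM per kb, Srebf1 at 45.2, Srebf2 at 41.1 and Acly, which makes cytosolic acetyl-CoA from citrate, at 32.5 CPM per kb. The sterol enzymes with the highest level per kb were Fdft1 (squalene synthase) at 16.4, Cyp51 (lanosterol demethylase) at 14.5 and Hmgcs1 (HMG-CoA synthase) at 14.0 CPM per kb. Scd1 stood at 3.56 CPM per kb. Acaca, the cytosolic acetyl-CoA carboxylase, was at 2.32 and Acacb, its counterpart at the mitochondrial surface, at 2.63 CPM per kb. Fdps, farnesyl diphosphate synthase, was lowest at 0.299 CPM per kb. Its counts are uncertain: 26.7% of its exonic bases are shared with Gm43738 on the same strand, which itself had 0 to 3 counts per library, and pairs that fit both genes were counted for neither. Pairs that fit several places in the genome were not counted either, and how many of those came from Fdps was not measured, so its level and fold changes are uncertain.

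The genes differed in how widely they ranged over the 18 libraries. The highest CPM was 8.70 times the lowest for Idi1, 7.53 times for Insig1, 7.36 times for Acacb, 6.88 times for Sqle, 6.71 times for Msmo1 and 6.69 times for Cyp51. It was 1.51 times for Acly, 1.70 times for Ebp, 1.84 times for Acaca and 1.90 times for Npc2. Fdps had the widest range, 9.12 times, on a lowest count of 8 pairs.

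At 1 month after tamoxifen, PLD was set against WT. Of the 34 genes, 4 rose and 2 fell in PLD at an adjusted p under 0.05 by edgeR, where 3% of the 17749 genes tested rose and 2.02% fell. The genes that rose were Cyp51, Hmgcs1, the SREBP brake and target Insig1, and the lysosomal cholesterol exporter Npc1, and those that fell were Acacb and Acss2. Among the 18 sterol enzymes 2 rose, 0 fell, 15 had a log2 fold change above 0, and the median log2 fold change was 0.51. Among the 8 fatty acid enzymes 0 rose, 2 fell, 4 lay above 0 and the median was 0.02. The median over all genes was -0.05. Beside these counts, cholangiocyte markers summed to between 8427 and 11630 CPM in PLD and between 3343 and 9105 in WT, and markers of dividing cells to between 120.4 and 198 CPM in PLD and between 37.5 and 88.7 in WT. Of the cholangiocyte markers 5 of 10 were called higher and 0 lower, with a median log2 fold change of 1.05. Of the dividing-cell markers 3 of 8 were called higher and 0 lower, with a median of 1.33. Macrophage markers summed to between 429.6 and 543.7 CPM in PLD and between 679 and 1278 in WT, with 9 of 10 below 0, 1 called lower and a median log2 fold change of -1.58. In the endothelial, fibroblast and hepatocyte lists 0 of 10 were called. The part of these markers in the result was not tested.

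Cyp51 (ENSMUSG00000001467.5, mm10 chromosome 5 from 4081145 to 4104746) had 153, 158 and 128 CPM in PLD libraries, against 51.8, 40.8 and 62.6 CPM in WT libraries. Every PLD library lay above every WT library, and the log2 fold change was 1.48 ± 0.35 (standard error, edgeR adjusted p = 0.0386, n = 3 each). Hmgcs1 (ENSMUSG00000093930.2, chromosome 13 from 119690379 to 119708260), which makes HMG-CoA at the head of the mevalonate route, had 146, 166 and 126 CPM in PLD, against 65.2, 59.1 and 84.8 CPM in WT. The groups did not overlap, with a log2 fold change of 1.05 ± 0.27 (edgeR adjusted p = 0.0483). Insig1 (ENSMUSG00000045294.11, chromosome 5 from 28071363 to 28078662) had 137, 153 and 137 CPM in PLD, against 59.3, 58.9 and 47.4 CPM in WT. It too was apart in every library, at 1.35 ± 0.30 (edgeR adjusted p = 0.0318). Npc1 had 184, 175 and 135 CPM in PLD, against 71.5, 71.8 and 91.3 CPM in WT, a log2 fold change of 1.05 ± 0.16 (edgeR adjusted p = 0.00836). Its groups did not overlap either. Squalene epoxidase, Sqle, the step that commits squalene to sterols, had 49.7, 42.3 and 44.7 CPM in PLD and 27.4, 22.5 and 48.9 CPM in WT. WT replicate 3 lay inside the PLD range, and the change of 0.45 ± 0.42 missed the test (edgeR adjusted p = 0.550).

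In the fatty acid arm the genes called at 1 month lay lower in PLD. Acacb (ENSMUSG00000042010.16, chromosome 5 from 114146535 to 114250761), whose malonyl-CoA restrains fatty acid entry into mitochondria, had 29, 25.2 and 28.0 CPM in PLD, against 55.9, 65.9 and 35.2 CPM in WT. The groups did not overlap, although WT replicate 3 came close to PLD, and the log2 fold change was -0.95 ± 0.23 (edgeR adjusted p = 0.0418). Acss2, which makes acetyl-CoA from acetate, had 14.3, 18.6 and 15.9 CPM in PLD, against 23.6, 24.9 and 38.7 CPM in WT, a change of -0.85 ± 0.21 (edgeR adjusted p = 0.0447). Fatty acid synthase, Fasn, had 187, 204 and 167 CPM in PLD and 97.9, 96.2 and 204 CPM in WT. WT replicate 3 was as high as the highest PLD library, and the change of 0.46 ± 0.26 was not called (edgeR adjusted p = 0.302). Scd2 had 229.6, 313 and 275 CPM in PLD and 184, 199.6 and 428 CPM in WT, so WT held both the highest and the lowest library (-0.01 ± 0.31, edgeR adjusted p = 0.989). Elovl6 was higher by 0.95 ± 0.32 but not called (edgeR adjusted p = 0.104). Scd1 (0.26 ± 0.31, edgeR adjusted p = 0.650), Srebf1 (0.39 ± 0.28, 0.424) and Srebf2 (0.60 ± 0.19, 0.0883) were not called either. Without WT replicate 3 Fasn was at 0.92 (edgeR adjusted p = 0.00253), Srebf1 at 0.87 (0.00942) and Srebf2 at 0.73 (0.0280), all past the test. The number of genes called at 1 month rests on single libraries. It was 15 when WT replicate 3 was left out and 1 when WT replicate 1 or WT replicate 2 was. It was 0 with PLD replicate 1 or PLD replicate 2 left out, and 3 with PLD replicate 3 left out. The count over all genes moved too, from 892 of 17749 with every library. It was 3485 of 18521 without WT replicate 3, 293 of 18384 without WT replicate 1 and 274 of 18456 without WT replicate 2. Without PLD replicates 1, 2 and 3 it was 114 of 18602, 99 of 18509 and 918 of 18512.

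**Figure D1:**
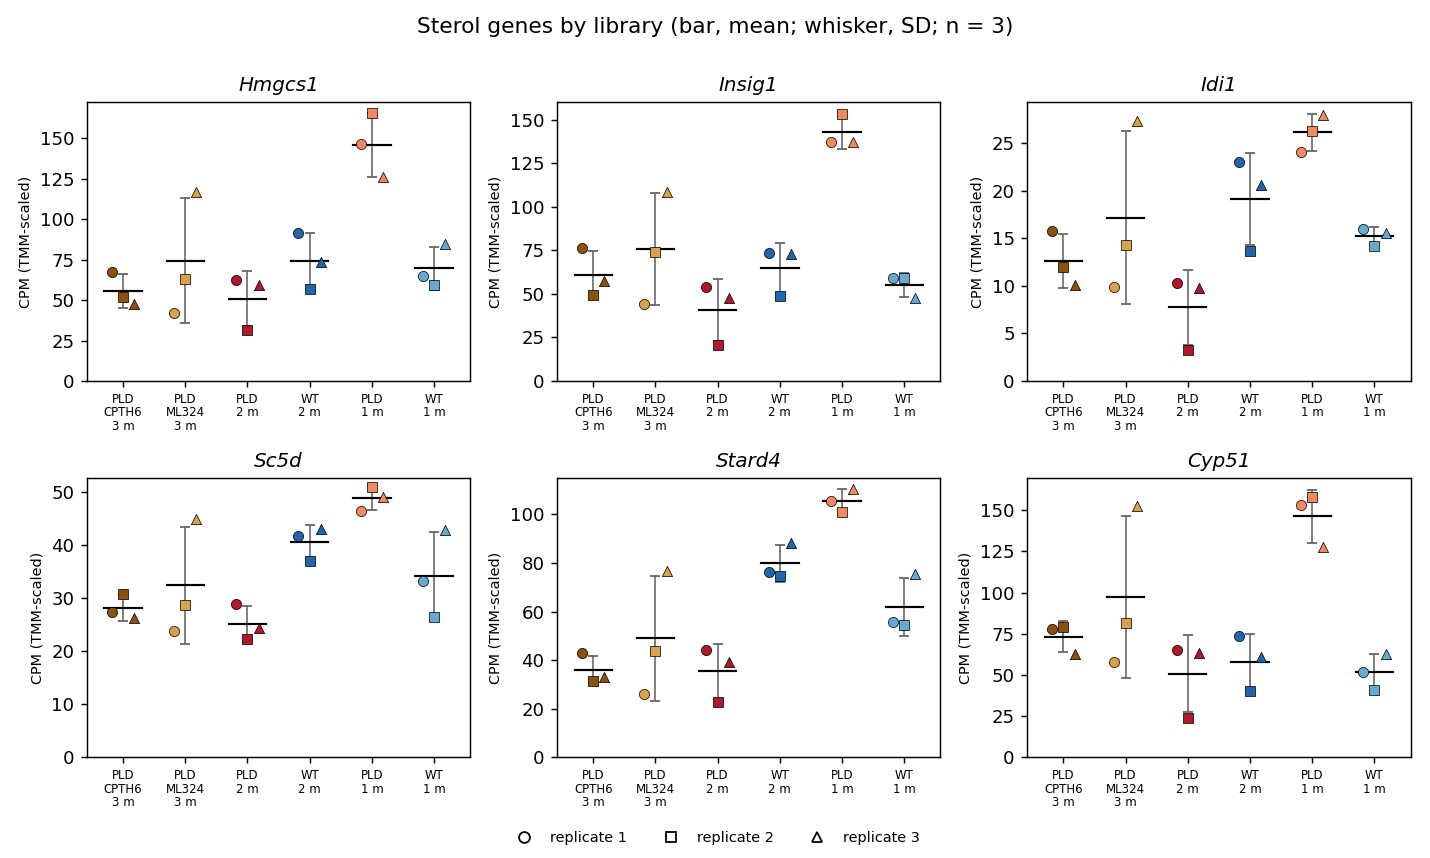
CPM of 6 sterol genes in each library, with the group mean (bar) and SD (whisker), n = 3 libraries per group. PLD at 1 month held Hmgcs1 at 126 to 166 CPM and Insig1 at 137 to 153 CPM, above every library of the other groups.

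At 2 months PLD was again set against WT. In PLD 4 of the 34 genes rose and 7 fell, where 19.7% of all genes rose and 20.3% fell. The share of the 34 that rose was thus below that of all genes, and the share that fell was close to it. The 4 that rose were Npc1, Srebf1, Scap and Ebp, an isomerase of the late sterol route. The 7 that fell were the sterol enzymes Idi1, Mvk and Sc5d, the carboxylases Acaca and Acacb, Insig2 and Stard4, a cytosolic sterol carrier. Among the 18 sterol enzymes 1 rose, 3 fell, 12 lay below 0 and the median log2 fold change was -0.30. Among the 8 fatty acid enzymes 0 rose, 2 fell and the median was -0.32, against -0.03 over all genes. Cholangiocyte markers summed to between 12690 and 14880 CPM in PLD and between 2378 and 4621 in WT, and endothelial markers to between 431 and 1126 CPM in PLD and between 5930 and 10500 in WT. Of the cholangiocyte markers 8 of 10 were called higher, of the dividing-cell markers 5 of 8, and of the endothelial markers 10 of 10 were called lower. The fibroblast markers had 4 of 10 called lower, and the macrophage markers 1 called higher and 3 lower. The part of these markers in the changes was not tested.

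In the sterol arm, Idi1, the isopentenyl diphosphate isomerase (ENSMUSG00000058258.14, chromosome 13 from 8885501 to 8892451), had 10.3, 3.22 and 9.78 CPM in PLD, against 23.0, 13.7 and 20.6 CPM in WT. No PLD library reached a WT library, PLD replicate 2 was lowest, and the log2 fold change was -1.28 ± 0.35 (edgeR adjusted p = 0.0147). Mevalonate kinase, Mvk, had 12.7, 4.29 and 11.8 CPM in PLD, against 22.9, 20.6 and 18.5 CPM in WT (-1.08 ± 0.34, edgeR adjusted p = 0.0274). Sc5d, a late desaturase (ENSMUSG00000032018.14, chromosome 9 from 42251595 to 42264256), had 28.8, 22.4 and 24.3 CPM in PLD, against 41.7, 37.0 and 43.1 CPM in WT (-0.67 ± 0.17, edgeR adjusted p = 0.00892). Both genes were below WT in every PLD library. Ebp went the other way, with 32.8, 37.9 and 34.8 CPM in PLD, against 25.0, 27.3 and 24.1 CPM in WT (0.48 ± 0.10, edgeR adjusted p = 0.00319). Hmgcs1 had 62.6, 31.2 and 59.1 CPM in PLD and 91.7, 57.0 and 73.5 CPM in WT, which overlap (-0.52 ± 0.26, edgeR adjusted p = 0.139). Sqle had 24.8, 8.58 and 26.6 CPM in PLD and 59.0, 26.6 and 36.4 CPM in WT (-1.0 ± 0.43, edgeR adjusted p = 0.0846).

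Acacb had 19.6, 25.4 and 18.8 CPM in PLD at 2 months, against 57.1, 69.0 and 43.3 CPM in WT. The groups were well apart, with a log2 fold change of -1.40 ± 0.23 (edgeR adjusted p = 0.00116). Acaca had 33, 41.2 and 30.9 CPM in PLD, against 47.5, 50.2 and 44.2 CPM in WT (-0.42 ± 0.12, edgeR adjusted p = 0.0200). Fasn had 169, 146 and 145 CPM in PLD and 157, 120.2 and 118 CPM in WT. These overlap, and neither Fasn (0.24 ± 0.26, edgeR adjusted p = 0.492) nor Scd1 (-0.70 ± 0.31, 0.0943) nor Scd2 (-0.32 ± 0.31, 0.441) was called.

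Among the regulators, Srebf1 (ENSMUSG00000020538.15, chromosome 11 from 60199089 to 60222581) had 328, 413 and 284 CPM in PLD, against 122, 142 and 163 CPM in WT. Every PLD library was above every WT library, at a log2 fold change of 1.27 ± 0.29 (edgeR adjusted p = 0.00534). The gene-level count does not separate the SREBP-1a and SREBP-1c transcripts of Srebf1. Scap had 86.9, 94.3 and 86.5 CPM in PLD, against 54.1, 55.4 and 53.5 CPM in WT (0.73 ± 0.10, edgeR adjusted p = 0.000407). The groups did not overlap, and their libraries lay close together. Insig2, the other INSIG, had 18.7, 31.3 and 25.5 CPM in PLD, against 29.4, 39.5 and 37.2 CPM in WT, which overlap in 1 library (-0.48 ± 0.17, edgeR adjusted p = 0.0455). Srebf2 (0.41 ± 0.19, edgeR adjusted p = 0.109) and Insig1 (-0.65 ± 0.30, 0.102) were not called. In sterol transport, Npc1 had 196, 153 and 162 CPM in PLD, against 72.5, 69.3 and 85.1 CPM in WT (1.19 ± 0.16, edgeR adjusted p = 0.000394). Stard4 had 44.1, 22.6 and 39.3 CPM in PLD, against 76.4, 74.7 and 88.4 CPM in WT (-1.16 ± 0.22, edgeR adjusted p = 0.00258). The calls of Acacb, Npc1, Scap, Srebf1 and Stard4 held under each of the 12 alternatives run at 2 months. Of the others, Idi1 lost its call without WT replicate 1 (edgeR adjusted p = 0.0511), Mvk without WT replicate 1 or 2 (up to 0.0741) and Sc5d without PLD replicate 2 (0.0573). Acaca (edgeR adjusted p up to 0.133) and Insig2 (up to 0.206) lost theirs without PLD replicate 1, PLD replicate 3 or WT replicate 2, and Insig2 also without WT replicate 3. With no filter on low counts Acaca (0.154), Insig2 (0.107) and Ebp (0.0693) missed the test, the only alternative in which Ebp did.

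**Figure D2:**
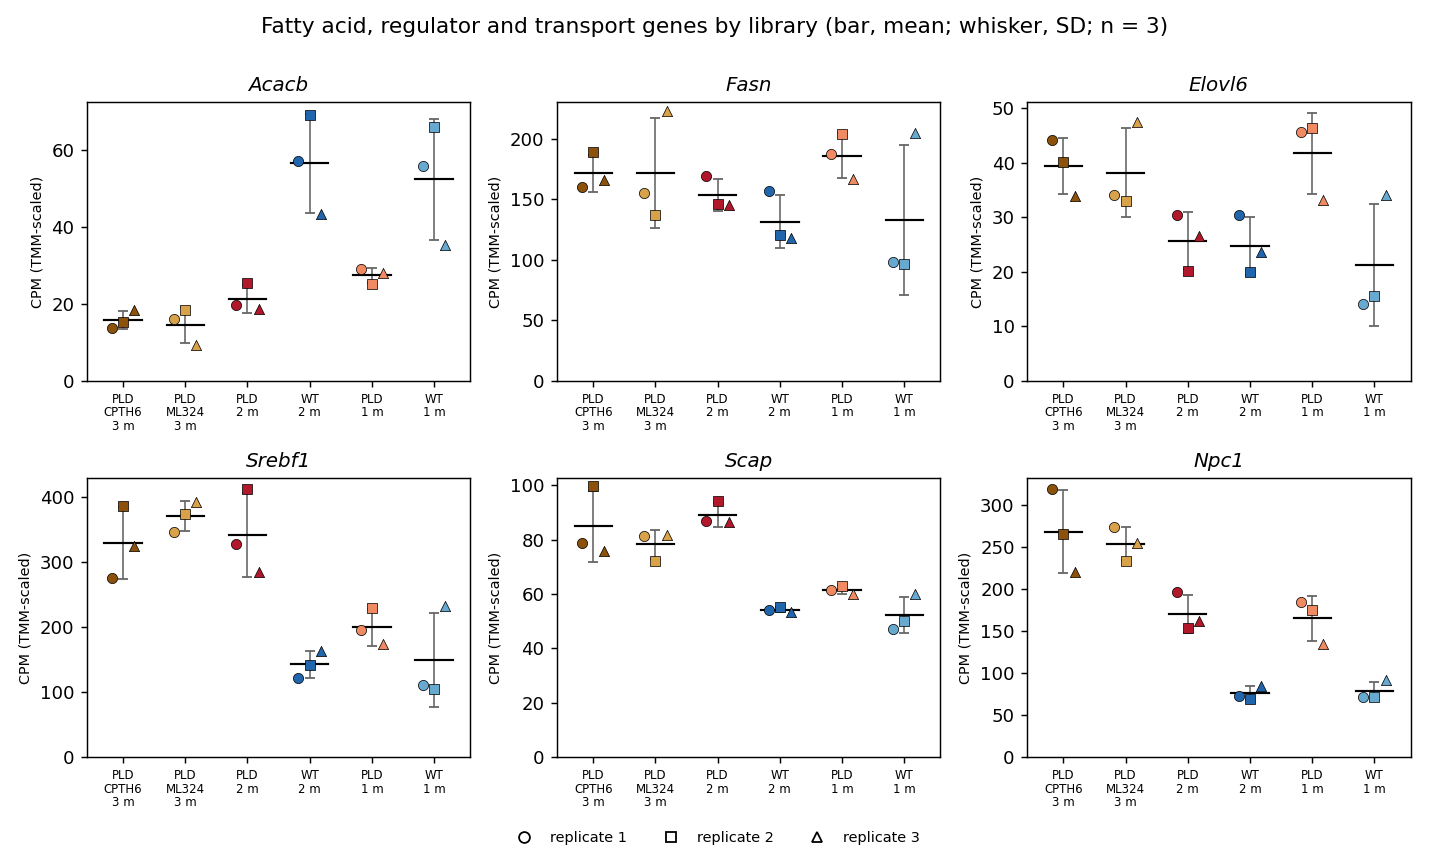
CPM of Acacb, Fasn, Elovl6, Srebf1, Scap and Npc1 in each library, with group mean (bar) and SD (whisker), n = 3 libraries per group. Srebf1 ran from 284 to 413 CPM in PLD at 2 months and from 122 to 163 CPM in WT at 2 months, and WT replicate 3 at 1 month (triangle) had 204 CPM of Fasn, above the 97.9 and 96.2 CPM of the other two.

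The next comparison set 2 months against 1 month within PLD. Of the 34 genes 2 rose and 8 fell, where 4.38% of all genes rose and 5.23% fell. The 8 were the sterol enzymes Hmgcs1, Idi1, Cyp51, Msmo1, Hsd17b7 and Sc5d together with Insig1 and Stard4, and the 2 that rose were Ebp and Scap. The median log2 fold change was -0.61 over the 18 sterol enzymes, of which 14 lay below 0, and -0.25 over the 8 fatty acid enzymes, of which 7 lay below 0 and 0 were called. The median over all genes was -0.01. Cholangiocyte markers summed to between 12690 and 14880 CPM at 2 months and between 8427 and 11630 at 1 month, and fibroblast markers to between 3209 and 7348 CPM at 2 months and between 9838 and 12640 at 1 month, with 0 of 10 called in each list. Endothelial markers had the largest median change of the marker lists: they summed to between 431 and 1126 CPM at 2 months and between 1886 and 3635 at 1 month, 9 of 10 were called lower, and the median log2 fold change was -1.93. The part of these markers in the result was not tested.

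Stard4 had 44.1, 22.6 and 39.3 CPM at 2 months, against 106, 101 and 110.5 CPM at 1 month, and the values of Insig1 and Hmgcs1 in both groups are given above. Insig1 fell by 1.79 ± 0.31 on the log2 scale (edgeR adjusted p = 0.0126), Hmgcs1 by 1.49 ± 0.27 (0.0146) and Stard4 by 1.55 ± 0.23 (0.00938). All 3 were below the 1-month range in every 2-month library, and their calls held under each of the 11 alternatives. Idi1 fell to 10.3, 3.22 and 9.78 CPM at 2 months, against 24.1, 26.3 and 28.0 CPM at 1 month (-1.72 ± 0.35, edgeR adjusted p = 0.0195). Msmo1, a methylsterol oxidase of the route after lanosterol, had 23.5, 9.06 and 25.7 CPM at 2 months, against 60.0, 60.8 and 56.6 CPM at 1 month (-1.58 ± 0.36, edgeR adjusted p = 0.0264). Cyp51 had 64.9, 23.6 and 63.4 CPM at 2 months, against 153, 158 and 128 CPM at 1 month (-1.50 ± 0.35, edgeR adjusted p = 0.0277). In each of these genes PLD replicate 2 at 2 months was the lowest library. Its marker sums also differed from those of replicates 1 and 3, as given above, and their part was not tested. Hsd17b7 (-1.06 ± 0.27, edgeR adjusted p = 0.0385) and Sc5d (-0.93 ± 0.17, 0.0144) fell, and Ebp (0.47 ± 0.10, 0.0197) and Scap (0.56 ± 0.10, 0.0146) rose. Sqle (-1.16 ± 0.43, edgeR adjusted p = 0.105), Srebf1 (0.80 ± 0.28, 0.0928), Srebf2 (-0.16 ± 0.19, 0.615), Fasn (-0.25 ± 0.26, 0.550), Acacb (-0.35 ± 0.23, 0.346), Scd1 (-0.32 ± 0.31, 0.521) and Scd2 (-0.25 ± 0.31, 0.634) were not called. The number of genes called was 7 without PLD replicate 1 at 2 months, 7 without replicate 2 and 3 without replicate 3. It was 4, 6 and 3 without PLD replicates 1, 2 and 3 at 1 month. The count over all genes was 1706 of 17749 with every library. It was 429, 599 and 274 without PLD replicates 1, 2 and 3 at 2 months, and 238, 644 and 135 without those at 1 month.

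Between 2 months and 1 month in WT, edgeR called 0 of the 34 genes and 0.0113% of all genes higher and 0.0394% lower. At an unadjusted p under 0.05 there were 2 of the 34, Fdps and Lss, where the share of all genes was not counted. DESeq2 called 0 of the 34 and 827 of 17749 genes in all. Hmgcs1 had 91.7, 57.0 and 73.5 CPM at 2 months and 65.2, 59.1 and 84.8 CPM at 1 month, and Insig1 had 73.3, 48.6 and 72.6 CPM at 2 months and 59.3, 58.9 and 47.4 CPM at 1 month. Both genes overlapped between the months, with log2 fold changes of 0.08 ± 0.26 (edgeR adjusted p = 0.918) and 0.22 ± 0.30 (0.759). The other genes followed throughout gave 0.29 ± 0.42 for Sqle, 0.10 ± 0.23 for Acacb, -0.03 ± 0.26 for Fasn, 0.63 ± 0.31 for Scd1, 0.06 ± 0.31 for Scd2, -0.08 ± 0.28 for Srebf1 and 0.04 ± 0.19 for Srebf2. The median was 0.19 over the sterol enzymes and 0.08 over the fatty acid enzymes, against -0.04 over all genes.

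The interaction of genotype and month asked whether the PLD to WT difference at 2 months was unlike that at 1 month. It was lower at 2 months for 5 of the 34 genes and higher for 0, where 3.13% of all genes were called lower and 2.55% higher. The 5 were Hmgcs1, Idi1, Sc5d, Insig1 and Stard4, which are sterol genes, and no fatty acid enzyme was among them. Stard4 had the lowest adjusted p, with a difference of -1.91 ± 0.32 in log2 fold change (edgeR adjusted p = 0.0160). Sc5d differed by -1.17 ± 0.23 (0.0244), Insig1 by -2.01 ± 0.42 (0.0274), Hmgcs1 by -1.57 ± 0.37 (0.0390) and Idi1 by -2.04 ± 0.49 (0.0397). For each the log2 fold change of PLD over WT was above 0 at 1 month and below 0 at 2 months. Endothelial markers were called lower in the same interaction in 9 of 10 cases, with a median of -2.94, and 1 of 10 cholangiocyte markers was called higher, with a median of 1.22. The part of these markers in the interaction was not tested. Sqle (-1.45 ± 0.60, edgeR adjusted p = 0.175), Srebf1 (0.88 ± 0.40, 0.209), Srebf2 (-0.19 ± 0.27, 0.696), Fasn (-0.23 ± 0.37, 0.746), Acacb (-0.44 ± 0.32, 0.436), Scd1 (-0.95 ± 0.44, 0.214) and Scd2 (-0.31 ± 0.44, 0.706) were not called. Stard4 kept its call under each of the 17 alternatives, with an edgeR adjusted p of at most 0.0482. The other 4 lost theirs in 8 to 12 of them, and the number of genes called was 7 without WT replicate 3 at 1 month and between 1 and 4 without any other single library. The count over all genes was 1008 of 17749 with every library and 1413 of 18521 without WT replicate 3 at 1 month. Without any other single library it ran from 100 to 1392.

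**Figure D3:**
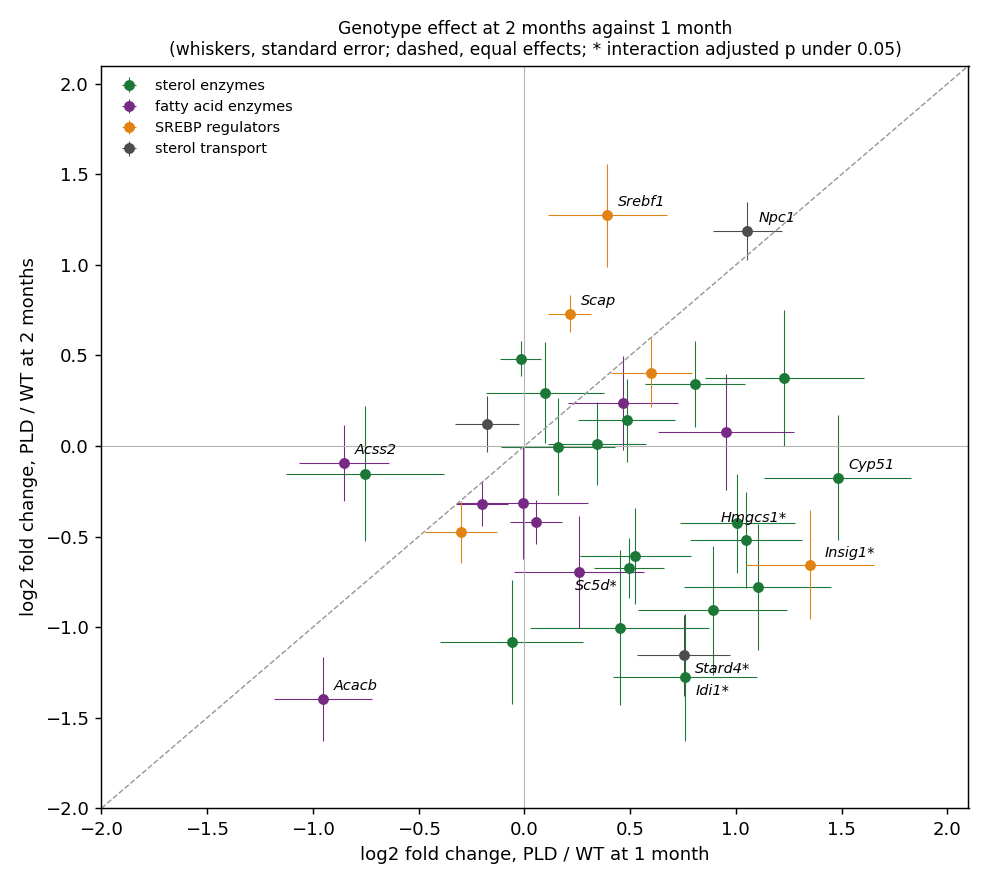
Log2 fold change of PLD over WT at 2 months (vertical axis) against that at 1 month (horizontal axis) for the 34 genes, coloured by role, with standard errors as whiskers and equal effects on the dashed line. Asterisks mark the 5 genes whose effects differed between months by edgeR, all right of 0 and below 0, while Npc1 lies near the dashed line at 1.05 and 1.19.

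Set side by side, the arms gave different pictures: the sterol sum of PLD at 1 month lay above the other untreated groups, and the fatty acid sum overlapped between them. The 18 sterol enzymes summed to 482, 287 and 469 CPM in PLD at 2 months and 631, 388 and 499 CPM in WT at 2 months. At 1 month they summed to 787, 799 and 729.9 CPM in PLD and 444, 361 and 534 CPM in WT. At 1 month the PLD libraries were above all WT libraries, and at 2 months the groups overlapped. The 8 fatty acid enzymes summed to 744, 618 and 613 CPM in PLD and 872, 816 and 697 CPM in WT at 2 months, and to 731, 833 and 756 CPM in PLD and 607, 628 and 1021 CPM in WT at 1 month. These overlapped between the groups at both months. At 1 month the overlap rested on WT replicate 3 (1021 CPM), the library that stood apart. WT replicates 1 and 2, at 607 and 628 CPM, lay below every PLD library, as they did in the sterol arm. The ratio of the fatty acid sum to the sterol sum was 0.928, 1.04 and 1.04 in PLD at 1 month, and between 1.10 and 2.15 in the other 15 libraries. The interaction medians were -1.08 over the sterol enzymes and -0.38 over the fatty acid enzymes, against 0.02 over all genes. The sterol median was -0.79 without PLD replicate 2 at 2 months, and the fatty acid median was -0.62 without WT replicate 3 at 1 month. The difference between the arms was not tested, since genes of an arm are not replicates.

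**Figure D4:**
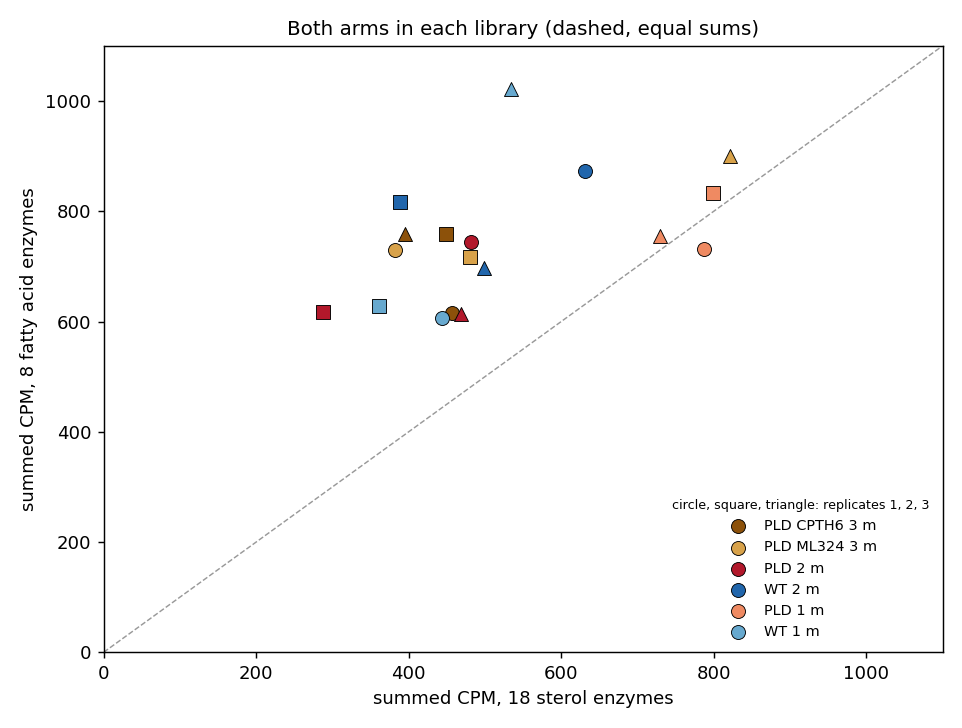
Summed CPM of the 18 sterol enzymes (horizontal axis) and the 8 fatty acid enzymes (vertical axis) in each of the 18 libraries, with equal sums on the dashed line. The PLD libraries at 1 month lie at 729.9 to 799 CPM of sterol enzymes, near the dashed line of equal sums, and ML324 replicate 3 lies beyond them at 821 CPM.

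Within a group the sterol enzymes tended to be high or low in the same library. In ML324 replicate 3 all 18 sterol enzymes had their highest value of that group, where 32.6% of 16162 genes did. In PLD replicate 2 at 2 months 15 of the 18 had their lowest value of the group, where 35.8% of all genes did. WT replicate 1 at 2 months held the highest value of 15 of the 18, against 28.0% of all genes, and WT replicate 2 at 1 month the lowest of 15, against 26.5% of all genes. In PLD at 1 month no library held the highest value of more than 8 or the lowest of more than 6. Of the 8 fatty acid enzymes 6 were highest in ML324 replicate 3, against 32.6% of all genes. In PLD replicate 2 at 2 months they did not follow the sterol enzymes. There 3 of the 8 were lowest, close to the 35.8% of all genes, and 4 were highest, against 43.4% of all genes. These are descriptions of single libraries, whose genes share depth and preparation.

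The compound groups were set against untreated PLD at 2 months, and both comparisons share those 3 libraries. With CPTH6 2 of the 34 genes rose and 1 fell, where 9.39% of 16502 genes rose and 13.7% fell. Npc1 had 319, 265 and 219.8 CPM with CPTH6, against 196, 153 and 162 CPM in untreated PLD (0.66 ± 0.15, edgeR adjusted p = 0.0137). Elovl6, which lengthens palmitate to stearate, had 44.2, 40.1 and 33.9 CPM with CPTH6, against 30.4, 20.2 and 26.6 CPM in untreated PLD (0.62 ± 0.19, edgeR adjusted p = 0.0437). Both genes were above every untreated library. Fdps had 0.524, 0.313 and 0.395 CPM with CPTH6, against 0.988, 1.02 and 1.27 CPM in untreated PLD (-1.39 ± 0.38, edgeR adjusted p = 0.0282), with the limit on its counts given above. Without PLD replicate 3 edgeR called 0 of the 34, the only alternative in which Npc1 lost its call (adjusted p = 0.0517). Elovl6 lost its call in 5 of 11 alternatives, without PLD replicate 2 or 3 and without any of the CPTH6 libraries (edgeR adjusted p up to 0.138). Fdps lost its call in 6 of 11, with no filter on low counts, without any of the PLD libraries and without CPTH6 replicate 2 or 3 (up to 0.0963). Insig2 was called without PLD replicate 1 and Dhcr7 without PLD replicate 2, and neither in the full set.

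The sterol sum was 457, 449 and 395 CPM with CPTH6, against 482, 287 and 469 CPM in untreated PLD, and the groups overlapped. Hmgcs1 had 67.2, 52.1 and 47.4 CPM with CPTH6, against 62.6, 31.2 and 59.1 CPM in untreated PLD (0.13 ± 0.36, edgeR adjusted p = 0.832). The genes followed throughout were not called at -0.07 ± 0.47 for Sqle, 0.59 ± 0.39 for Insig1, -0.05 ± 0.15 for Srebf1, 0.09 ± 0.21 for Srebf2, 0.16 ± 0.17 for Fasn, -0.42 ± 0.23 for Acacb, -0.00 ± 0.37 for Scd1 and 0.18 ± 0.21 for Scd2. The median log2 fold change was -0.01 over the sterol enzymes and 0.02 over the fatty acid enzymes, against -0.04 over all genes.

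With ML324 1 of the 34 genes rose and 1 fell, where 7.96% of all genes rose and 11.4% fell. Npc1 had 273, 233 and 254 CPM with ML324, against 196, 153 and 162 CPM in untreated PLD (0.63 ± 0.15, edgeR adjusted p = 0.0206). Npc2, the lysosomal protein that hands cholesterol to Npc1, had 102, 124 and 114 CPM with ML324, against 177, 174 and 168 CPM in untreated PLD (-0.56 ± 0.09, edgeR adjusted p = 0.00353). The partners of lysosomal export lay apart from untreated PLD in opposite directions, in every library. They did so with CPTH6 too, where Npc2 ran from 136 to 149 CPM, against 168 to 177 CPM in untreated PLD. Its log2 fold change of -0.26 with CPTH6 was not called. With ML324 the call of Npc2 held under each of the 11 alternatives, and that of Npc1 was lost without PLD replicate 2 or 3 and without ML324 replicate 1 or 3 (edgeR adjusted p up to 0.0697). Elovl6, called with CPTH6, was not called with ML324, yet ran from 32.9 to 47.5 CPM, above every untreated library (20.2 to 30.4 CPM). It was called by DESeq2, with its size factors, with no filter and with the replicate block, and also without PLD replicate 1 or ML324 replicate 2.

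The sterol enzymes spread widely with ML324, summing to 383, 479.8 and 821 CPM, against 482, 287 and 469 CPM in untreated PLD. Hmgcs1 had 42.2, 63.3 and 117 CPM with ML324, against 62.6, 31.2 and 59.1 CPM in untreated PLD (0.59 ± 0.36, edgeR adjusted p = 0.292). Insig1 had 44.3, 74.0 and 109 CPM with ML324, against 54.0, 20.4 and 47.4 CPM in untreated PLD (0.95 ± 0.39, edgeR adjusted p = 0.119). ML324 replicate 3 was highest in both. Sqle (0.83 ± 0.47), Srebf1 (0.17 ± 0.15), Srebf2 (0.41 ± 0.21), Fasn (0.21 ± 0.17), Acacb (-0.49 ± 0.24), Scd1 (-0.50 ± 0.37) and Scd2 (0.51 ± 0.21) were not called. The median was 0.35 over the sterol enzymes, of which 15 lay above 0, and 0.19 over the fatty acid enzymes, against -0.01 over all genes. Fibroblast markers were called lower in 10 of 10 cases with each compound, macrophage markers in 5 of 9, and endothelial markers in 3 of 10 with CPTH6 and 1 of 10 with ML324. In both compound groups fibroblast and endothelial markers were below those of untreated PLD at 2 months in every library except the endothelial sum of ML324 replicate 2 (545 CPM, against 431 to 1126), and their part in these values was not tested.

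Between the compounds, whose titles give the same month, edgeR called 0 of the 34 genes and 0 of 15989 genes in all. At an unadjusted p under 0.05 there were 8 of the 34. The share of all genes at that threshold was not counted, so the 8 are not read as a result. DESeq2 called 0 of the 34 and 293 of 15989 genes in all. The sterol enzymes had a median log2 fold change of CPTH6 over ML324 of -0.40, with 16 of 18 below 0, and the fatty acid enzymes of -0.09, against -0.02 over all genes. Without ML324 replicate 3 the sterol median was -0.01. Hmgcs1 (-0.46 ± 0.33), Sqle (-0.90 ± 0.38), Insig1 (-0.35 ± 0.30), Srebf1 (-0.22 ± 0.13), Srebf2 (-0.32 ± 0.19), Fasn (-0.05 ± 0.18), Acacb (0.07 ± 0.24), Scd1 (0.49 ± 0.35) and Scd2 (-0.34 ± 0.19) had adjusted p from 0.386 to 0.932 by edgeR. These values do not show that the compounds act alike.

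**Figure D5:**
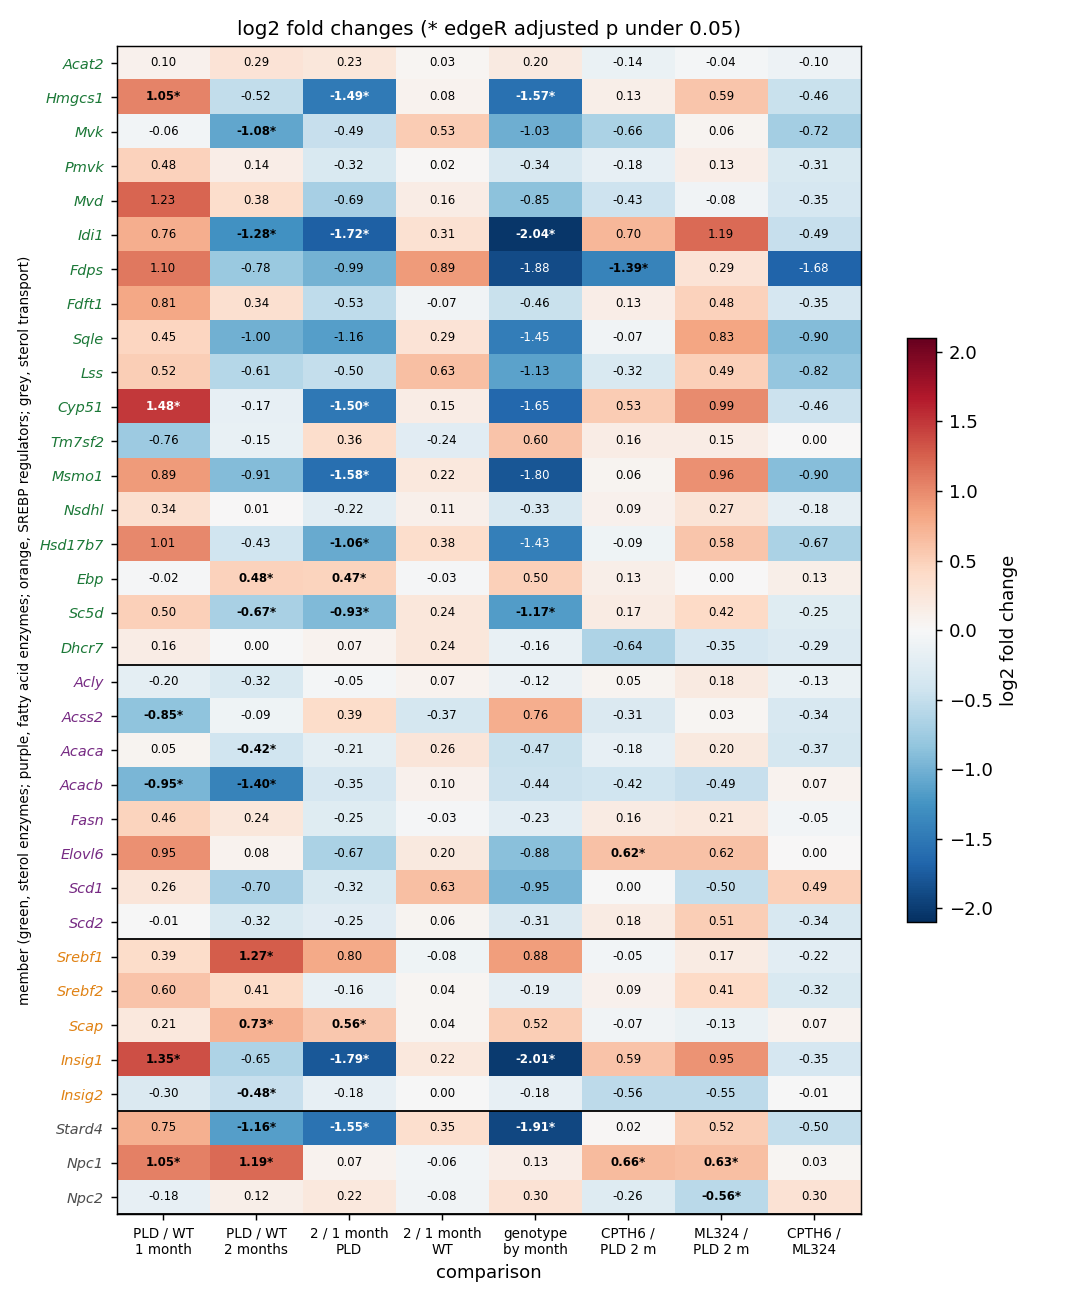
Log2 fold changes of the 34 genes (rows, by role) in the 8 comparisons (columns), with an asterisk where the edgeR adjusted p was under 0.05. The sterol rows are mostly above 0 for PLD over WT at 1 month (median 0.51) and mostly below 0 in the interaction (median -1.08).

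Over the 8 comparisons 20 of the 34 genes were called at least once and 14 never. The share of all genes called at least once was not counted. In PLD against WT at 2 months alone 7091 of 17749 genes were called, so the 20 are not read as particular to these genes. The 14 were Acat2, Pmvk, Mvd, Fdft1, Sqle, Lss, Tm7sf2, Nsdhl and Dhcr7 of the sterol arm, Acly, Fasn, Scd1 and Scd2 of the fatty acid arm, and Srebf2. Their log2 fold changes ran from -1.45 for Sqle in the interaction to 1.23 for Mvd in PLD over WT at 1 month.

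Other genes of lipid handling were followed as lists. Of 12 genes for SREBP processing and sterol handling, 0 were called at 1 month, and 2 rose and 2 fell in PLD against WT at 2 months, where 19.7% of all genes rose and 20.3% fell, so neither share was above that of all genes. The 2 that rose were the late endosomal sterol carrier Stard3 (0.77 ± 0.21) and Erlin2 (0.53 ± 0.18), and the 2 that fell were Soat1, which esterifies cholesterol (-0.41 ± 0.14), and the lipoprotein receptor Scarb1 (-0.72 ± 0.25). With CPTH6 and with ML324 3 of the 12 fell and 0 rose in each, where 13.7% of all genes fell with CPTH6 and 11.4% with ML324. The 3 were Soat1 (-0.96 ± 0.16 with CPTH6 and -1.26 ± 0.16 with ML324), the lysosomal lipase Lipa (-0.52 ± 0.14 and -0.97 ± 0.14) and Scarb1 (-0.58 ± 0.12 and -0.56 ± 0.12). Soat1 had 8.27, 10.7 and 9.76 CPM with CPTH6 and 7.20, 9.14 and 6.31 CPM with ML324, against 19.9, 18.8 and 17.5 CPM in untreated PLD at 2 months. No treated library reached an untreated one.

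Of 7 LXR receptors and targets, which answer to oxysterols, Arl4c rose in PLD relative to WT at 1 month (1.52 ± 0.19), where 3% of all genes rose. At 2 months 3 rose, namely Arl4c (2.01 ± 0.20), the phospholipid enzyme Lpcat3 (0.78 ± 0.15) and Nr1h2 (0.47 ± 0.13), and 1 fell, Mylip (-2.11 ± 0.41), which marks lipoprotein receptors for degradation. Of all genes 19.7% rose and 20.3% fell there, so 1 of 7 falling was below the share of all genes. Between 2 months and 1 month in PLD, the sterol exporter Abcg1 (1.46 ± 0.30) and Lpcat3 (0.63 ± 0.15) rose, where 4.38% of all genes did. Abcg1 had 45.8, 99.3 and 42.8 CPM at 2 months, against 22.6, 20.5 and 25.8 CPM at 1 month. All 2-month libraries were higher, and replicate 2 was the highest.

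Of 19 genes for acyl-CoA supply, elongation, desaturation and glyceride synthesis, 3 rose in PLD relative to WT at 1 month, namely Elovl1 (0.64 ± 0.11), Acsl5 (0.54 ± 0.11) and Dgat2 (1.59 ± 0.38), where 3% of all genes rose. At 2 months 10 rose and 2 fell, where 19.7% of all genes rose and 20.3% fell, and the median log2 fold change was 0.62, against -0.03 over all genes. The 2 of 19 that fell were a smaller share than among all genes. Dgat2, which makes triglyceride, had 128, 97.8 and 119 CPM in PLD at 2 months, against 12.5, 14.3 and 15.9 CPM in WT (3.03 ± 0.40, edgeR adjusted p = 0.000319). The groups were far apart. Malic enzyme Me1, a source of NADPH, rose by 1.80 ± 0.24 and Elovl1 by 0.79 ± 0.11, while Thrsp (-2.30 ± 0.46) and Fads1 (-0.88 ± 0.24) fell. With CPTH6 2 of the 19 rose and 3 fell against untreated PLD, where 9.39% of all genes rose and 13.7% fell. With ML324 2 rose and 2 fell, where 7.96% of all genes rose and 11.4% fell. The medians were 0.04 and -0.004. Acsl3, which rose in both, had 65.3, 78.1 and 60.0 CPM with CPTH6 and 59.3, 66.5 and 58.4 CPM with ML324. Untreated PLD at 2 months had 34.2, 30.2 and 30.6 CPM. Its adjusted p was the smallest of the list in both (1.10 ± 0.11 and 1.01 ± 0.11, edgeR adjusted p = 0.000391 and 0.000847).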

How the data were processed

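RNA from 18 libraries of mouse cholangiocytes was read as the count per gene that the authors deposited. Per the file headers, read pairs were counted with featureCounts 1.6.0 on the GENCODE vM25 annotation without a strand option, and pairs that fit several genes or places were not counted. The submitters' processing notes add STAR 2.7.4a, SAMtools 1.12, DESeq2 1.26.0 and build mm10. Of the 55401 genes 55141 received a symbol by Ensembl ID, and 34 of 34 listed genes matched. Without strand, pairs from exon bases shared with an opposite gene cannot be assigned: this touches 12.1% of the exonic bases of Hmgcs1, 9.2% of Idi1, 18.8% of Fdft1 and 13.2% of Scap.

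Tests used edgeR 4.0.16 under R 4.3.3 (filterByExpr, TMM scaling, quasi-likelihood F-test, Benjamini-Hochberg over all genes tested, adjusted p under 0.05). The 12 untreated libraries shared a fit with 8 residual degrees of freedom, both compounds and PLD at 2 months a fit of 9 libraries with 6, and the compounds a fit of 6 libraries with 4. Standard errors are the log2 fold change over the square root of F. The test was checked on simulated counts. Alternatives were DESeq2 1.42.0, its size factors in edgeR, no filter, a replicate block, only the groups compared, and leaving out libraries. Genes named in full are the called ones with the smallest adjusted p by role (up to 6 sterol enzymes, 4 fatty acid enzymes, 3 regulators and 2 transport genes) and 9 genes followed in every comparison, and up to 3 called genes of each other list. The genes and lists were chosen with earlier results of these data known. Marker lists describe a library and name no cell in it.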

Additional observations from a re-analysis of the deposited data

Results flagged for a closer look

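The PLD to WT difference changed between months for 5 genes by the interaction term of edgeR, which tests the difference of the 2 effects itself. For Stard4 it was -1.91 (adjusted p = 0.0160), from log2 fold changes of -1.16 at 2 months and 0.75 at 1 month. For Insig1 it was -2.01 (0.0274), from -0.65 and 1.35. For Idi1 it was -2.04 (0.0397), from -1.28 and 0.76. For Hmgcs1 it was -1.57 (0.0390), from -0.52 and 1.05. For Sc5d it was -1.17 (0.0244), from -0.67 and 0.50. Of the 5 only Stard4 kept its call under each of the 17 alternatives. Hmgcs1 lost its call in 12 of them, Idi1 in 11, Insig1 in 9 and Sc5d in 8.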

How the results depend on the processing

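With other settings the arm medians mostly stayed within the spread between libraries, and the number of the 34 genes called moved more. At 1 month PLD against WT gave 6 called genes, 14 with no filter on low counts, 13 by DESeq2, 1 with only the 2 groups compared and 15 without both WT libraries that stood apart (0 to 15 without single libraries). Over all genes the same settings called 892 of 17749, 2194 of 45191, 2477 of 17749, 29 of 16766 and 3541 of 17894 (99 to 3485 without single libraries). The interaction gave 5, 10 with no filter and 12 by DESeq2 (1 to 7 without single libraries), where it gave 1008 of 17749, 2282 of 45191 and 2374 of 17749 over all genes. PLD at 2 months against 1 month gave 10, and 3 to 7 without single libraries (1706 of 17749, and 135 to 644, over all genes). CPTH6 gave 3, 7 with no filter and 0 to 3 without single libraries, and ML324 gave 2, 16 with no filter, 6 by DESeq2 and 1 to 4 without single libraries. Among all genes CPTH6 gave 3818 of 16502, 4522 of 37164 with no filter and 2490 to 3284 without single libraries. ML324 gave 3203 of 16502, 4073 of 37164 with no filter, 3860 of 16502 by DESeq2 and 1939 to 3043 without single libraries. CPTH6 against ML324 gave 0, and 2 with no filter, where 232 of 30972 genes were called. The cause of these moves was not tested, except that leaving out a library leaves fewer samples. The fatty acid median between months in WT was 0.08, 0.32 without both WT libraries and -0.046 to 0.39 without single libraries, and the interaction medians were -0.55 (fatty acid, without both WT libraries), -0.62 to -0.22 (fatty acid) and -1.21 to -0.79 (sterol) without single libraries. For CPTH6 against ML324 the sterol median ran from -0.63 to -0.0093. In no comparison did the deviations of same-numbered libraries correlate above 0.1 in every pair, so the numbers were not taken to pair the samples. The correlations were 0.0805, 0.198 and 0.152 between months in WT, and 0.0649, 0.108 and 0.0327 between ML324 and PLD. In both each library of the first group correlated best with its own number, a hint from the data and not from the design. Between PLD and WT at 1 month they were 0.00562, -0.172 and -0.228. With the replicate block edgeR called 6 genes at 1 month, of which 4 were shared (Hmgcs1 and Acss2 were lost), 14 at 2 months, 10 between months in PLD, 0 in WT, 4 in the interaction, 3 with CPTH6, 3 with ML324 and 0 between the compounds. Of 17749 genes in all, the block called 599 at 1 month, 6483 at 2 months, 965 between months in PLD, 0 in WT and 426 in the interaction. It called 3593 of 16502 with CPTH6, 3006 with ML324 and 1 of 15989 between the compounds.

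Signs turned only for genes that had not been called, and for these no direction should be read. Scd2 at 1 month was 0.019 with no filter, 0.025 with the replicate block and 0.48 without both WT libraries (-0.24 to 0.49 without single libraries). Between months in WT, without both WT libraries, Srebf1 was 0.49, Fasn 0.29 and Acacb -0.12, and Fasn was 0.0023 with the block and 0.0055 with only the 2 groups. Without single libraries these ran from -0.33 to 0.38 (Srebf1), -0.26 to 0.42 (Fasn), -0.13 to 0.26 (Acacb), -0.10 to 0.24 (Hmgcs1), -0.072 to 0.69 (Sqle), -0.10 to 0.16 (Srebf2) and -0.20 to 0.55 (Scd2). With CPTH6, Scd1 was 0.034 with DESeq2 size factors, 0.042 with no filter, 0.033 by DESeq2 and 0.027 with only the 2 groups, and Sqle was 0.063 with the block. Without single libraries the CPTH6 ranges were -0.13 to 0.31 (Hmgcs1), -0.44 to 0.19 (Sqle), -0.17 to 0.10 (Srebf1), -0.082 to 0.25 (Srebf2) and -0.35 to 0.31 (Scd1). Fasn with ML324 ran from -0.020 to 0.36. CPTH6 against ML324 ran from -0.73 to 0.041 (Hmgcs1), -0.62 to 0.0078 (Insig1), -0.19 to 0.19 (Fasn) and -0.16 to 0.27 (Acacb). Srebf2 ran from -0.31 to 0.023 between months in PLD and -0.32 to 0.015 in the interaction, where Fasn ran from -0.68 to 0.013.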

Other observations

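The sterol exporters Abca1 and Abcg1, 2 of the 7 LXR genes, were singled out after their values were seen. They were compared within the groups of 4 libraries that held the highest or lowest value of at least 15 of the 18 sterol enzymes. That cut leaves out ML324 replicate 1 and WT replicate 2 at 2 months, each with the lowest value of 14 of the 18. The other LXR genes were not compared in this way. ML324 replicate 3, with the highest sterol enzyme sum of its group (821 CPM), had 99.2 CPM of Abca1, against 189 and 194 CPM in replicates 1 and 2, and 39.6 CPM of Abcg1, against 62.9 and 43.6 CPM. PLD replicate 2 at 2 months, with the lowest sum of its group (287 CPM), had 327 CPM of Abca1 and 99.3 CPM of Abcg1, against 176 and 161 CPM of Abca1 and 45.8 and 42.8 CPM of Abcg1 in replicates 1 and 3. The WT libraries did not show this for both genes. WT replicate 1 at 2 months, with the highest sum of its group (631 CPM), had 142 CPM of Abca1, between the 176 and 138 CPM of replicates 2 and 3, and 40.8 CPM of Abcg1, against 69.0 and 49.5 CPM. WT replicate 2 at 1 month, with the lowest sum of its group (361 CPM), had 167 CPM of Abca1, between the 239 and 158 CPM of replicates 1 and 3, and 25.8 CPM of Abcg1, against 20.7 and 24.4 CPM. PLD replicate 2 at 2 months also differed from replicates 1 and 3 in its marker sums, as given above. The reason was not tested.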
